A study of Solanum tuberosum with 12 samples.

Results

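A 20 nt miR169 sequence of potato, PotatoMir1004934921, was predicted from 8 different hairpins of the genome, and these 8 loci are described here. They were chosen by the length of the mature sequence and by its read number of 4484, so that neither value is a finding. They were 8 of the 324 loci, and 1 of the 222 distinct mature sequences, in a list of predicted miRNAs of potato. Small RNAs had been sequenced from 12 libraries of clone ADG573 (Solanum tuberosum group Andigena), which forms tubers in short days (SD) and not in long days (LD). There were 3 libraries each of SD leaf, SD stolon, swollen stolon (also in SD) and LD leaf, all from plants propagated in vitro and grown for 4 weeks in a glasshouse in LD before they were moved to cabinets at 20 °C. The labels give 8 days in the cabinets for all samples, whereas the study's methods give later days for the stolons. All libraries came from 1 clone, and the list gives 1 read number per sequence over all of them together, so from the list no tissue or day length could be compared, no replicate error could be given, and the tissues could not be checked against marker genes. The read numbers by tissue in the study's supplement were not used here.

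Plant miRNAs are cut in the nucleus from a hairpin RNA. The cuts release a duplex of the mature miRNA with a partner from the other arm of the hairpin, the star sequence, and the mature strand is loaded into an Argonaute protein that cuts or represses mRNAs with a near-complete match. The miR169 family is conserved among flowering plants. In Arabidopsis it targets mRNAs of NF-YA proteins, the subunits of the CCAAT-box binding factor NF-Y that recognise the DNA sequence, and both the miRNA and its targets are known from responses to drought and nitrogen. The mature sequence was the same at all 8 loci by the way they were chosen. It is shown with bases 2 to 8, the seed, in capitals.
PotatoMir1004934921: tAGCCAAGgatgacttgcct

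The 8 precursors show how far copies of the same miRNA can differ outside it, and are printed 5′ to 3′ as the list gives them. The capitals at the left end mark the mature sequence, which starts every precursor, and those at the right end mark the star sequence read from the fold. Positions are those of the superscaffolds of the DM genome that the list uses. DM is another potato clone than ADG573. The names MIR169A to MIR169H are those of RefSeq (assembly SolTub_3.0). RefSeq genes were matched by precursor length and by a start within 3 bases, which gave a name to all 8 loci, and these were all 8 RefSeq genes named MIR169. Superscaffold and strand were not compared in this match.
MIR169A, PGSC0003DMB000000039:2197228-2197347, plus strand: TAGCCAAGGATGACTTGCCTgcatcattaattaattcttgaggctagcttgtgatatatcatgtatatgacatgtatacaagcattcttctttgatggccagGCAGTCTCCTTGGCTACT
MIR169B, PGSC0003DMB000000039:2204838-2204949, minus strand: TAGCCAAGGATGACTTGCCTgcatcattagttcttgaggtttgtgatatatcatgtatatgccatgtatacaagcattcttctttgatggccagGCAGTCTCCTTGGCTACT
MIR169C, PGSC0003DMB000000300:295134-295218, minus strand: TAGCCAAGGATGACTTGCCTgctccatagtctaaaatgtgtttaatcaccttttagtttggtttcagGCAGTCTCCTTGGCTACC
MIR169D, PGSC0003DMB000000300:294899-294989, minus strand: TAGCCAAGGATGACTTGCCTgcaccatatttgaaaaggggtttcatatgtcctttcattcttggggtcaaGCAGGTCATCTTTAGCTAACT
MIR169E, PGSC0003DMB000000300:297830-297902, plus strand: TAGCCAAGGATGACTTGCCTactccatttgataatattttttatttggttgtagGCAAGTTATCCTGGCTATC
MIR169F, PGSC0003DMB000000514:169892-169995, minus strand: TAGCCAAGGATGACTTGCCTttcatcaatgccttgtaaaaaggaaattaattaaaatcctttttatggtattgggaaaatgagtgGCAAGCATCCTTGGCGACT
MIR169G, PGSC0003DMB000000514:159253-159345, minus strand: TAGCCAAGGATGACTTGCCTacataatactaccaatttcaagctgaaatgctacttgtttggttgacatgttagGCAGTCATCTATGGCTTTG
MIR169H, PGSC0003DMB000000514:155220-155300, minus strand: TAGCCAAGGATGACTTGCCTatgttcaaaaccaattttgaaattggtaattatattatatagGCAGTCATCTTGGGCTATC

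The precursors lay in 3 groups on 3 superscaffolds, with 2 loci on PGSC0003DMB000000039, 3 on PGSC0003DMB000000300 and 3 on PGSC0003DMB000000514. Of the 8 loci, 7 had another locus of the same mature sequence within 10 kb, counted as bases between the precursors on either strand. In the whole list 56 of 324 loci (17.3%) had such a neighbour. The locus without one was MIR169F, which lay 10546 bases from MIR169G. A limit of 20 kb therefore took in all 8 loci, and a limit of 5 kb took in 5. The list holds many sequences with a single locus, which can have no such neighbour, and among the 146 loci of sequences with more than 1 locus the share was 38.4%. Both shares are for 10 kb on either strand, and none is given for 5 or 20 kb.

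Each group had its own arrangement. On PGSC0003DMB000000039, MIR169A (plus strand) and MIR169B (minus strand) lay 7490 bases apart and pointed towards each other. On PGSC0003DMB000000300, MIR169D and MIR169C lay on the minus strand with only 144 bases between them, the shortest spacing of all 8 loci. MIR169E followed 2611 bases further on and lay on the plus strand, so that it and MIR169C pointed away from each other. On PGSC0003DMB000000514, MIR169H, MIR169G and MIR169F all lay on the minus strand, with 3952 bases between MIR169H and MIR169G and 10546 bases between MIR169G and MIR169F. The 3 groups spanned 7722, 3004 and 14776 bases in this order. In all, 2 loci lay on the plus strand and 6 on the minus strand, against 173 and 151 in the whole list. Strands are relative to each superscaffold, so only loci of the same group can be compared, and these totals are not read as a bias. When only neighbours on the same strand were counted, 4 of the 8 loci had one within 10 kb, and MIR169A, MIR169B and MIR169E no longer had one. No share of the list is given for this count, and the shares above, for either strand, are not comparable with it.

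**Figure D1:**
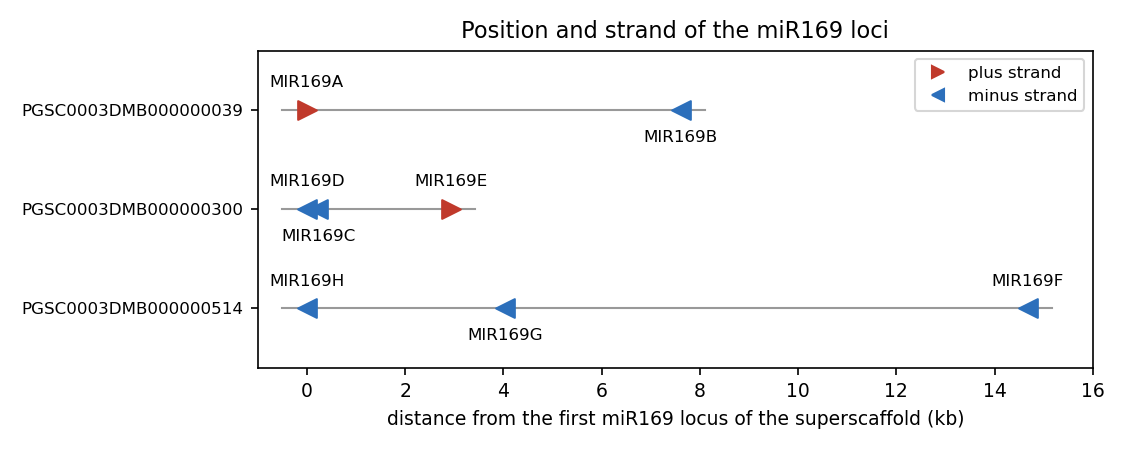
Position of each miR169 locus as the distance in kb from the leftmost miR169 locus of its superscaffold, with triangles that point right for the plus strand and left for the minus strand. The groups span 7722, 3004 and 14776 bases, and opposite strands occur in the upper and the middle group only.

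No other listed locus lay on PGSC0003DMB000000300 or PGSC0003DMB000000514. PGSC0003DMB000000039 held 1 other, PotatoMir1001248178, a 24 nt sequence with 4 reads on the minus strand, at PGSC0003DMB000000039:1184351-1184455. It lay 1012772 bases from MIR169A, far outside the group. None of the 8 precursors overlapped another locus, against 20 of the 324 loci of the list that did.

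The mature sequence stood on the 5′ arm of the hairpin at all 8 loci. In the list 167 of 324 loci (51.5%) had it on the 5′ arm, and 12 of the other 15 loci with a 20 nt mature sequence did. Since the 8 loci carry the same sequence and were predicted from the same reads, they do not count as 8 separate observations of an arm.

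The reads could not be divided among the loci, because each read matches all 8 equally well. The 4484 reads (95% Poisson interval 4354 to 4617, counting error only) were 0.47% of the 954147 reads of the list when each distinct sequence was counted once (95% Wilson interval 0.456 to 0.484%). This gave the sequence place 10 of 222 by reads. The next sequence above it, PotatoMir1005353002, had 4609 reads, and the next below, PotatoMir1005564753, had 3830. Among the 10 distinct sequences of 20 nt it was first and held 82.8% of their 5418 reads, and the second, PotatoMir1005943737, had 345. The median over all distinct sequences was 17.5 reads. These values chose the loci and are given as a description.

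The precursors were between 73 nt (MIR169E) and 120 nt (MIR169A) long, with a median of 92 nt, against a median of 85 nt and quartiles of 70 and 122 nt in the list. Nearly all of this spread lay between the mature and the star sequence. That part was 34 nt long in MIR169E, 42 nt in MIR169H, 47 nt in MIR169C, 50 nt in MIR169D, 54 nt in MIR169G, 65 nt in MIR169F, 74 nt in MIR169B and 82 nt in MIR169A. Both loci of PGSC0003DMB000000039 were thus the longest, and the other groups each mixed shorter and longer precursors. The GC content of the whole precursors was 34.6 to 43.5% (median 39.9%), against a median of 37.5% in the list. The part between mature and star was poorer in G and C, with 19% in MIR169H, 23.5% in MIR169E and 27.7% in MIR169F as the lowest values and 40.0% in MIR169D as the highest.

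**Figure D2:**
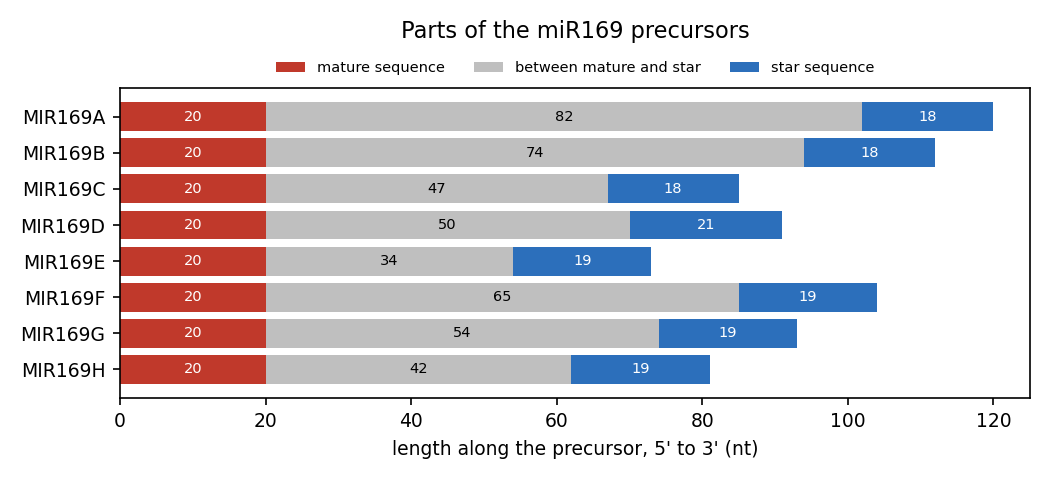
Length in nt of the mature sequence, the part between mature and star, and the star sequence, laid along each of the 8 miR169 precursors. The middle part runs from 34 nt in MIR169E to 82 nt in MIR169A, while the star is 18, 19 or 21 nt long.

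Outside the mature sequence the precursors differed widely. Identity was the share of identical positions in a global alignment of 2 whole precursors, with gap positions counted as differences. Its median over the 28 pairs was 60.5%, and it was 51.1% when the shared mature sequence was left out of the alignment. The highest value was 90.8%, between MIR169A and MIR169B, and the lowest was 45.8%, between MIR169A and MIR169E. Without the mature sequence those pairs had 89.0% and 35%. After MIR169A and MIR169B came MIR169C and MIR169D with 74.7%, MIR169E and MIR169H with 68.7%, MIR169G and MIR169H with 67.0%, and MIR169C and MIR169E with 66.3%. A wide step therefore lay between the closest pair and all others.

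The differences between MIR169A and MIR169B all fell between the mature and the star sequence. They were 3 substitutions and 2 gaps of 4 bases each, and both star sequences were identical. With gap positions left out the pair had 97.3% identity. The neighbouring minus-strand loci MIR169C and MIR169D, by contrast, differed by 17 substitutions and 6 gap positions, although only 144 bases separated them, and their star sequences had 71.4% identity.

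**Figure D3:**
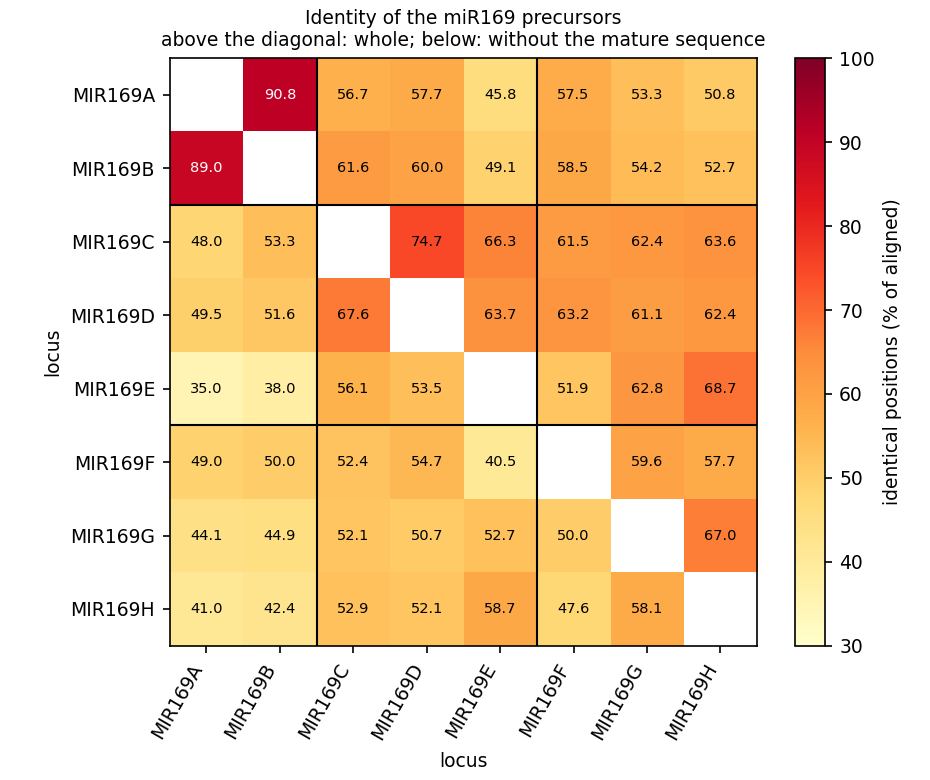
Identity in percent of aligned positions for each pair of miR169 precursors, whole above the diagonal and without the mature sequence below it, with black lines between the 3 superscaffolds. The pair of MIR169A and MIR169B stands apart with 90.8%, and all other pairs lie between 45.8 and 74.7% for whole precursors.

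The 7 pairs on the same superscaffold had identities of 57.7 to 90.8% (median 66.3%), and the 21 pairs on different superscaffolds had 45.8 to 68.7% (median 58.5%). Without the closest pair the median on the same superscaffold was 65.0%. The ranges overlap, and the pairs share loci, so no test was made. For 5 of the 8 loci the closest precursor lay on the same superscaffold, and the exceptions were MIR169E and MIR169H, which were closest to each other, and MIR169F, which was closest to MIR169D. This count depended on how the precursors were aligned and scored. It was 2 with gap positions left out, when only MIR169A and MIR169B had their closest precursor on the same superscaffold. It was 7 in a multiple alignment, where MIR169E was closest to MIR169C, MIR169F to MIR169H and MIR169H to MIR169G, and MIR169G had 54.8% with MIR169E on another superscaffold, which was counted as its closest, and 54.8% with MIR169H.

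The parts of the precursors differed in how alike they were. In the multiple alignment of 140 columns, 26 were identical in all 8 precursors. These were all 20 columns of the mature sequence, which the choice of loci fixed, 5 of the 26 columns that any star sequence covered, and 1 of the 94 columns between. In pairwise alignments the star sequences had a median identity of 72.6% (57.9 to 100%) and the part between had 43.2% (31.7 to 86.6%). Every star pairs with the same mature sequence, and the study filtered its predictions on such pairing. The higher identity of the stars was thus partly set by the choice of loci and was not tested.

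The other sequences with at least 5 loci in the list served for comparison. There were 7, with 5 to 12 loci each. They were PotatoMir1003902287, PotatoMir1004453921, PotatoMir1005536707, PotatoMir1002964519, PotatoMir1003753189, PotatoMir1005405793 and PotatoMir1006225982. Their median pairwise identity was 87.1 to 100%, so all 7 had more similar precursors than the miR169 sequence with 60.5%. Without the mature sequence the values were 81.9 to 100%, against 51.1% for miR169. The miR169 sequence also had the most reads, 4484, against 6 to 462 for the others, and the most distinct star sequences, 7, ahead of 6 for the 12 loci of PotatoMir1003902287. Low precursor identity was not limited to miR169 when sequences with fewer loci were taken in. Of the 44 sequences with at least 2 loci, 4 had a lower median identity, and each of these had 2 or 3 loci. The lowest was 33.8%, for the 2 loci of PotatoMir1003317851.

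Grouping on the genome was shared by some of these sequences. PotatoMir1004453921 likewise had 7 of 8 loci with another within 10 kb, on 2 superscaffolds, and PotatoMir1003902287 had 11 of 12, on 5 superscaffolds. Their precursors had a median identity of 92.2% and 87.1%. PotatoMir1005536707, PotatoMir1002964519 and PotatoMir1006225982 had every locus on a superscaffold of its own. Close spacing and dissimilar precursors thus occurred together in miR169 and not in the other sequences with at least 5 loci, which is a description of 8 sequences and was not tested.

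The 8 star sequences comprised 7 distinct sequences, since MIR169A and MIR169B had the same star. The star is the end of the precursor opposite the mature sequence, cut where the fold leaves a 3′ overhang of 2 nt on the mature strand. All 8 stars began with the same 3 bases, and the stars of MIR169A and MIR169C differed in 1 base, the last of 18. The stars were identical to those printed in the study's supplement at all 8 loci. None of the 7 was itself a mature sequence of the list. Read numbers of star sequences, which the study's supplement gives, were not used here.

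The duplex of mature and star took several forms. MIR169A, MIR169B and MIR169C had a bulged mature base at position 11 and another at position 16, counted from the 5′ end, with every other position up to 18 in a Watson-Crick pair. MIR169G and MIR169H also had the bulge at position 16, with a mismatch at position 7 or 6 and a G:U pair at position 8, and MIR169G left position 1 unpaired. MIR169E had a bulge at position 7 and a G:U pair at position 12, and MIR169F had a bulge at position 13 and left positions 1 and 2 unpaired. MIR169D was the only locus without a bulge. It had a mismatch at position 5 and G:U pairs at positions 8 and 15. Positions 6 and 7 are the same base, as are positions 15 and 16, so a bulge at either of 2 such positions cannot be told apart.

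Position 16 was thus bulged at 5 of the 8 loci and position 11 at 3. The stars of these 3, MIR169A, MIR169B and MIR169C, differ at most in the last base. They are not 3 separate observations of the bulges. Positions 3, 4, 9, 10, 14, 17 and 18 formed a Watson-Crick pair at every locus. The 5′ bases of the mature strand, positions 1 to 10, held 1 of the 10 bulges, all 3 mismatches, 3 of the 5 G:U pairs and the 3 bases left unpaired at the 5′ end of MIR169F and MIR169G.

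The length of the star went with the number of bulges at 7 of the 8 loci. A bulged mature base has no base opposite it in the star, unlike a mismatched one. Each star was cut from the pairing of position 18 to the precursor end. Its length is therefore largely set by the bulges, and the match is no separate finding. The stars with 2 bulges were 18 nt long (3 loci) and those with 1 were 19 nt long (4 loci). The star of MIR169D was 21 nt long, with an overhang of 3 nt at its own 3′ end. No star thus had the 20 nt of the mature sequence. A star length other than that of the mature sequence was found at 101 of 324 loci of the list (31.2%). The star was the shorter one at 7 of the 8 loci, against 54 of 324 in the list (16.7%). Of the other 15 loci with a 20 nt mature sequence, 4 had a star of 20 nt. The precursor ends in the list were set by the authors' prediction.

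Of the 8 loci, 5 met 3 criteria for the duplex taken from those of the study, which ask for mature and star on opposite arms, allow up to 4 mismatches between them, and allow a single asymmetric bulge no larger than 2 nt. Every mature base outside its 3′ overhang without a pair in the star was taken as a mismatch in this count, bulged bases included. Unpaired star bases were not. The study also asks for 3′ overhangs of 2 nt, which did not enter this count. On the mature strand the cut set that overhang. On the star strand it was 2 nt at MIR169A, MIR169B, MIR169C, MIR169E and MIR169H and 3 nt at MIR169D, and it could not be read at MIR169F and MIR169G, whose first mature base was unpaired. In the list 265 of 324 loci (81.8%) met the 3 criteria. The miR169 loci that did not were MIR169A, MIR169B and MIR169C, each because of its 2 bulges of 1 nt. Their stars differ at most in the last base, so these are not 3 separate duplexes. The study's methods say that its predictions were filtered on such criteria, so this outcome holds for the folds made here from the listed precursors, and the cause of the difference was not tested. More than 1 asymmetric bulge was found at 35 of 324 loci in the list (10.8%). Among the other 15 loci with 20 nt mature sequences 8 met the criteria and 7 had more than 1 asymmetric bulge. All 8 miR169 loci had the arms opposite each other and 1 to 3 unpaired bases at positions 1 to 18. Nearly all of the list was alike in this. The arms were opposite at 323 of 324 loci, and only 23 of 324 had more than 4 unpaired bases. When G:U pairs counted as mismatches, 5 of the 8 loci still met the criteria, against 174 of 324 (53.7%) in the list. The share of the 8 was thus below that of the list in the first count and above it in the second. With only 8 loci, 3 of them with nearly the same star, neither difference is read as a trait of miR169. The count of 5 was also the same when the fold was made at 20 °C and when dangling ends were left out of the energy model.

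The folds were of middling stability for the list. The minimum free energy was -48.8 kcal/mol for MIR169A, -44.8 for MIR169B, -40.9 for MIR169C, -34.8 for MIR169D, -39.8 for MIR169E, -49.4 for MIR169F, -35.6 for MIR169G and -34.9 for MIR169H. The most negative values belonged to long precursors, MIR169F and MIR169A. Per 100 nt of precursor, the scale on which lengths can be compared, MIR169E was lowest with -54.5 kcal/mol, followed by MIR169C with -48.1, MIR169F with -47.5 and MIR169H with -43.1. MIR169A had -40.7, MIR169B -40.0, MIR169G -38.3 and MIR169D -38.2 kcal/mol per 100 nt. The median was -41.9 kcal/mol, against -43.0 in the list with quartiles of -50.6 and -34.4. Of the 8 loci, 4 lay below the list's median, and only MIR169E lay below its lower quartile. MIR169E was 60th of 324 from the lowest value and MIR169D, the highest of the 8, was 210th.

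**Figure D4:**
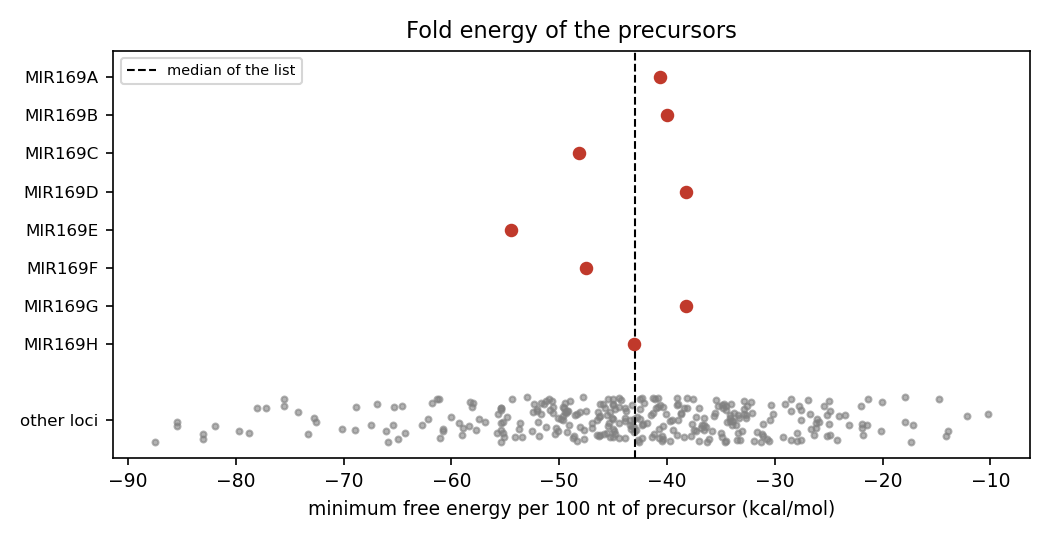
Minimum free energy per 100 nt of precursor in kcal/mol, with a point for each miR169 locus and for each of the other loci of the list, spread vertically at random, and a dashed line at the median of the list. The 8 loci lie between -54.5 and -38.2 kcal/mol, 4 on each side of the median of -43.0.

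The shape of the hairpins also varied. The whole precursors held 27 base pairs (MIR169E) to 43 (MIR169A and MIR169B). Between mature and star, the folds held 8 pairs in MIR169E, 11 in MIR169H, 12 in MIR169G, 13 each in MIR169C and MIR169D, 22 in MIR169F and 25 each in MIR169A and MIR169B. The share of paired bases in this part was 48.1% in MIR169G and 70.3% in MIR169B as the lowest and the highest. MIR169A and MIR169B, 8 nt apart in length, thus had the same number of pairs.

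No other mature sequence of the list resembled this one closely. In ungapped alignments over at least 17 bases, the most similar of the 221 others, PotatoMir1005480829 (21 nt, 8 reads, 1 locus), shared 13 of the 20 bases. Then came 5 sequences that shared 12, namely PotatoMir1000747591, PotatoMir1001392017, PotatoMir1003753189, PotatoMir1003788433 and PotatoMir1006187661. None of the 316 other precursors held a run of 14 bases of the miR169 sequence on either strand.

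The study's stricter prediction names 14 transcripts as targets of this sequence, and 13 of them are annotated as YA, the NF-YA subunits. They hold 5 distinct sites, which are shown because they carry the pairing that the prediction rests on. Capitals mark bases in a Watson-Crick pair with the miRNA, and small letters mark a mismatch or a G:U pair. Each site is printed 5′ to 3′, so that its right end pairs with the 5′ end of the miRNA.
YA1 site: AGGCAgaUCAUCCUUGGCUA
YA4 site: GGCAAuUCAUCCUUGGCUu
YA5 site: AGGCAAuUCAUCCUUGGCUu
YA6 site: GGgAAGUCAUCCUUGGCUA
Site in the gene of unknown function: GCAgGgCAUCCUUGGCUA

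Every site paired with positions 2 to 12 of the miRNA without a mismatch or a G:U pair. The YA6 site, present in 6 transcripts, had 1 mismatch, at position 17. The YA1 site, in 3 transcripts, had 1 mismatch at position 14 and a G:U pair at position 15. The YA5 site (3 transcripts) and the YA4 site (1 transcript) each had mismatches at positions 1 and 14, and YA4 was the shorter of them by the base at position 20. The site in the gene of unknown function (1 transcript) had a mismatch at position 13 and a G:U pair at position 15. The sites had been chosen by the study for their pairing, so the counts are a description, and no cleavage was measured in these data.

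Sites and stars differed in which positions of the miRNA they most often left unpaired, and some positions were shared. Position 1 was unpaired at 2 loci and mismatched in 2 sites, and position 13 was bulged at 1 locus and mismatched in 1 site. Position 16, bulged in 5 of the 8 star duplexes, was paired in all 5 sites, and position 11, bulged at 3 loci, was paired in all 5 sites too. The bulge at position 16 cannot be told apart from a bulge at position 15, which was in a G:U pair in 2 of the 5 sites. Position 14, mismatched in 3 of the 5 sites, was in a Watson-Crick pair with the star at all 8 loci. Over the positions 1 to 18 that every site covers and every duplex can pair, 13 were in a Watson-Crick pair in every site and 7 in every star duplex. With G:U pairs included the numbers were 14 and 10. The study kept sites and hairpins under different limits on pairing. The counts also run over 5 sites against 8 duplexes, and each further duplex can only lower such a count. They are a description and do not compare how well sites and stars pair.

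**Figure D5:**
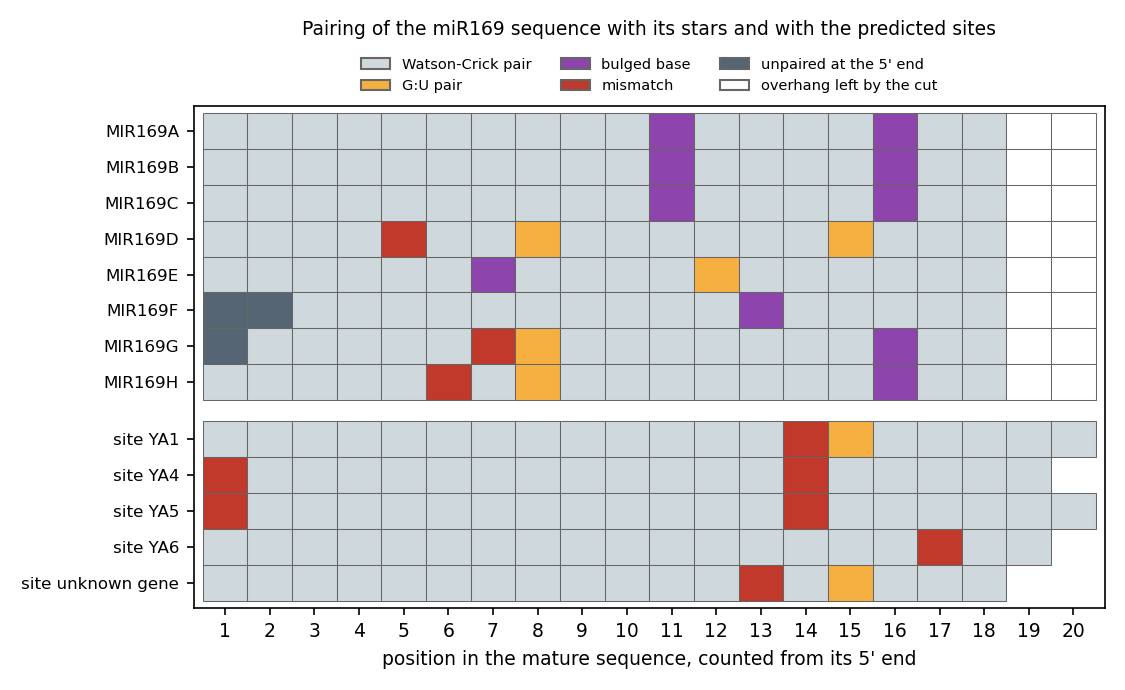
State of each position of the miR169 sequence in the duplex with the star of each locus (upper 8 bands) and with each of the 5 predicted target sites (lower 5 bands), with the overhang of 2 nt at positions 19 and 20 in white. Position 16 is bulged at 5 loci. Position 11 is bulged at MIR169A, MIR169B and MIR169C, whose stars differ at most in the last base. Positions 2 to 12 are paired in all 5 sites.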

How the data were processed

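Small RNAs of 12 libraries (TruSeq small RNA kit, Illumina GAIIx) were trimmed by the authors with Cutadapt 1.1 (version per their processing notes), cleared of structural RNAs and aligned to the DM superscaffolds with Bowtie without mismatches. The version of the superscaffolds is not given in the sources used here. Windows were folded with RNAfold and scored with miRDeep-P. The deposited list gives, for each locus, a read count over all libraries together, without normalization, in the identifier. The members, lists and measures were chosen with earlier results of these data known.

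Members were the loci with a 20 nt mature sequence and 4484 reads. RNAfold of ViennaRNA 2.7.2 gave the fold of every precursor at 37 °C. The star was cut at an overhang of 2 nt, from the nearest paired base within 5 nt. Alignments were global (Biopython 1.88; match 2, mismatch -1, gap opening -5, gap extension -1), or multiple with mafft 7.526. Stars were read from the fold and compared with those in the study's supplement. Site sequences came from that supplement, and its values were not used. Named were all 8 loci, the nearest other locus, sequences with at least 5 loci, the 3 most similar mature sequences with ties, and every listed site. Alternatives changed the fold, alignment, distance, read minimum and totals. Calculations used Python 3.11.15 and SciPy 1.17.1 and were tested on simulated hairpins.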

Additional observations from a re-analysis of the deposited data

How the results depend on the processing

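The main values rest on reads pooled over all libraries, and counting intervals cover counting error only. No paired analysis was possible because the list holds no values of single libraries. Folding at 20 °C gave minimum free energies of -66.22 (MIR169A), -61.16 (MIR169B), -54.79 (MIR169C), -48.06 (MIR169D), -52.30 (MIR169E), -64.55 (MIR169F), -47.82 (MIR169G) and -46.20 kcal/mol (MIR169H). Without dangling ends they were -48.30, -44.30, -40.40, -34.00, -39.20, -48.00, -35.10 and -34.30 kcal/mol in the same order. The stars of all 8 loci and the 5 loci that met the criteria were the same under both folds. The median pairwise identity was 75.3% with gap positions left out, 51.1% without the mature sequence and 45.9% in the multiple alignment. The closest pair, MIR169A and MIR169B under each of these, had 97.3, 89.0 and 90.8%. The lowest pair was MIR169D and MIR169G with gap positions left out (65.2%) and MIR169B and MIR169F in the multiple alignment (35.2%). The number of loci whose closest precursor lay on the same superscaffold was 2 with gap positions left out, 5 without the mature sequence and 7 in the multiple alignment, a comparison chosen after seeing the data. Within 10 kb on the same strand, 4 of the 8 loci had a neighbour. On either strand within 10 kb, the share of listed loci with a neighbour of the same sequence was 38.4% among sequences with more than 1 locus. It was 14.3% among loci with at least 5 reads. The share of loci that met the criteria was 81.1% with at least 5 reads. The reads of the sequence were 1.43% of the total when reads were summed over loci and 82.8% of those of 20 nt sequences. Mismatches with the 5 sites were the same over the first 17 bases.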

Other observations

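RefSeq names a single miRNA gene of the same length, with a start within 3 bases, for 198 of the 324 loci of the list, out of 215 RefSeq miRNA genes. The match did not compare superscaffold or strand, and a locus with more than 1 such gene was left without a name. The positions differ by a constant number of bases that depends on the strand. The list's start is 1 base higher than that of RefSeq at all 111 matched loci on the plus strand and 2 bases lower at all 87 on the minus strand. The 8 miR169 loci follow this, and the positions given here are those of the list.

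The 20 nt class, to which the miR169 sequence belongs, is small in the list, with 10 distinct sequences at 23 loci. A star shorter than the mature sequence was found at 7 of the 8 miR169 loci, against 1 of the 15 loci of the other 9 sequences and 54 of the 324 loci of the list. A star of 18 nt was found at 3 of the 8 and at none of the 15. Over all lengths, 4 of the 324 loci had a star of 18 nt, and 3 of these were MIR169A, MIR169B and MIR169C. The stars of these 3 differ at most in the last base, so they are not separate observations.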
